A study of Homo sapiens with 6 samples.

Results

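The aminoacyl-tRNA synthetase genes were followed in PK-1 and Panc-1 cells treated with inhibitors of the retinoic acid receptor RARγ. Both are established human lines derived from pancreatic ductal adenocarcinoma. The 36 genes were chosen by symbol, 20 for cytosolic enzymes and 16 for mitochondrial enzymes, the latter with symbols ending in 2, and all 36 were found among the 53826 entries of the expression tables, each as 1 entry. The question addressed was how the transcript level of each gene in a treated library compared with that in the control library of its cell line. For each line there was 1 control library, 1 library of cells treated for 24 h with RARγi-1 (LY2955303) and 1 library of cells treated for 24 h with RARγi-2 (MM11253), 6 libraries in all. With 1 library per condition there were no replicates, and no test was made. The RARγi-2 libraries were assigned by their titles, since another label names RARγi-1 as their treatment. Neither the doses used for the RNA-seq nor the vehicle of the controls was stated, so a difference between the inhibitors cannot be told apart from one of dose.

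An aminoacyl-tRNA synthetase joins an amino acid to its tRNA, the step that links the genetic code to protein. Human cells keep separate enzymes for the cytosol and for the mitochondrion for most amino acids, all of them encoded in the nucleus, and only the genes for glycine and lysine make both forms. When amino acids are short, or when other stresses reduce translation initiation, the transcription factor ATF4 is known to bind a composite site with the core letters TGATGCAA near many genes of amino acid uptake, synthesis and tRNA charging, several cytosolic synthetase genes among them.

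The letters TGATGCAA and the looser form TGATGNAA, which includes the first, were looked for on both strands from 250 bases before to 50 bases after the RefSeq transcription start (GRCh38.p14). Windows were matched for 30 of the 36 genes, 16 cytosolic and 14 mitochondrial, and not for DARS, LARS, VARS, YARS, AARS2 and VARS2. TGATGCAA was found in 6 of the 16 cytosolic windows (37.5%) and in 0 of the 14 mitochondrial windows, against 295 of 27305 genes with a window (1.08%). TGATGNAA was found in 7 of the 16 and 1 of the 14, against 4.46% of all genes. For the full match, 0 of 14 is near the 1.08% of all genes and does not set the mitochondrial genes apart. The stretches with a match are shown because 37.5% of the cytosolic windows held the full match. Each is 30 bases long and written 5′ to 3′ on the strand of the gene, with the 8 matching letters in capitals. TTGCATCA is TGATGCAA read on the other strand.
AARS: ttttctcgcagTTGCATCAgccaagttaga
CARS: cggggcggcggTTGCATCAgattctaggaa
IARS: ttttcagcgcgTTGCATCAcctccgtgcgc
MARS: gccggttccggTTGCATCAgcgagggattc
NARS: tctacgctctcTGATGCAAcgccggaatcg
TARS: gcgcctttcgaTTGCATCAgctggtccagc
GARS: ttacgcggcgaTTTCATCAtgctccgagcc
YARS2: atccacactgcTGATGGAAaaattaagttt

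Counted from +1 at the first transcribed base, with no position 0, the capitals in CARS span positions -2 to 6 (chr11:3057407-3057436, minus strand) and those in MARS span -4 to 4 (chr12:57488053-57488082, plus strand). In IARS they span -13 to -6 (chr9:92293692-92293721, minus strand). The matches in TARS (3 to 10, chr5:33440956-33440985, plus strand) and NARS (15 to 22, chr18:57621804-57621833, minus strand) lie within the transcribed part. The AARS match is farther upstream, at -187 to -180 (chr16:70289675-70289704, minus strand). Of the looser matches, that of GARS lies at -33 to -26 (chr7:30594834-30594863, plus strand) and that of YARS2 at -197 to -190 (chr12:32756076-32756105, minus strand). Thus 5 of the 6 cytosolic genes with the full match held it within 22 bases of the start. A match is a description of the letters, not of a bound site.

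The authors deposited log2 TPM, a transcript abundance per length that is scaled to the same total in each library, with all values under 1 TPM raised to 1 TPM. A fold change is given as log2 of (TPM + 1) in the treated library over (TPM + 1) in the control of the same line, which understates the change of low genes, and both comparisons of a line share the control library. An entry was counted as called past 2-fold, that is past 1 on the log2 scale. The background comprised the entries with a mean of at least 5 TPM over the 3 libraries of a line, 10624 for PK-1, 10425 for Panc-1, and all 36 genes passed this minimum in both lines. The difference between the treated libraries of a line gave the only measure of spread between libraries, a robust standard deviation over these entries of 0.41 (PK-1) or 0.31 (Panc-1) on the log2 scale. It includes real differences between the inhibitors, and it does not cover variation of the shared control.

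Between 13149 and 13652 entries per library lay above the floor of 1 TPM, and TPM keeps no read depth, so no counting interval can be given. The epithelial keratin genes KRT8, KRT18 and KRT19 were above the floor in all 6 libraries, but each was lower past 2-fold in both treated Panc-1 libraries, with log2 fold changes between -3.21 and -1.99 over the 3 genes. In PK-1 these 3 genes had values between -0.92 and -0.11. CDH1, which codes for E-cadherin, was at the floor in the 3 Panc-1 libraries and was at 0.66 and 1.17 in PK-1, past 2-fold up with RARγi-2. EPCAM, for an epithelial adhesion molecule, was at -0.07 and -0.22 in PK-1 and at 0.51 and -0.50 in Panc-1. Vimentin transcripts (VIM) ranged from 41.7 to 139.98 TPM in PK-1 and from 3962 to 6291 TPM in Panc-1. Of 6 markers of other cells, PTPRC, CD3E, PECAM1, ALB and INS were at the floor in all 6 libraries, and PRSS1, the trypsinogen gene of acinar cells, reached 21.2 TPM in the PK-1 RARγi-2 library and was at the floor in Panc-1. Whether the shifts of these markers had a part in the synthetase values was not tested. In such bulk libraries a change in the cells present cannot be told apart from a change of RNA per cell.

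Of the 20 cytosolic genes, 12 were higher in treated cells of both lines with both inhibitors, whereas most mitochondrial genes were lower in PK-1 and closer to the control in Panc-1. The share of all entries higher in all 4 comparisons was not computed. Past the spread on the high side in PK-1 were 9 of 20 cytosolic genes with each inhibitor. Of all entries, 32.8% (RARγi-1) and 30.6% (RARγi-2) were. In Panc-1 there were 12 and 13 of 20, against 34.4% and 31.2%. The low side had 3 and 4 of 20 in PK-1, against 18.4% and 31.9%. Panc-1 had 2 and 3 of 20 on that side, against 24.8% and 33.7%. With RARγi-1, 6 of the 20 cytosolic genes in PK-1 were past 2-fold up, against 10.3% of all entries, and 5 of 20 in Panc-1, against 8.29%. With RARγi-2 the counts were 6 of 20 in PK-1, against 13.3% of all entries, and 6 of 20 in Panc-1, against 9.59%. The only cytosolic gene past 2-fold down was FARSB, in both PK-1 comparisons, where 5.36% (RARγi-1) and 14.1% (RARγi-2) of all entries were past 2-fold down. None of the 16 mitochondrial genes was past 2-fold up in any of the 4 comparisons. Past 2-fold down were 1 of 16 mitochondrial genes with RARγi-1 and 4 of 16 with RARγi-2 in PK-1, and in Panc-1 1 of 16 (background 6.45%) and 2 of 16 (background 12%). In the direction down, the mitochondrial share was near the background in PK-1 RARγi-1 and in both Panc-1 comparisons. In PK-1 RARγi-2 it was 4 of 16 against 14.1%. With a minimum mean of 20 TPM, which fewer genes passed, 1 mitochondrial gene was down there.

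The medians of the groups followed the same order. The cytosolic median log2 fold change in PK-1 was 0.37 for RARγi-1 and 0.19 for RARγi-2, while Panc-1 had 0.52 and 0.57. The mitochondrial median was -0.53 and -0.76 for PK-1 versus -0.05 and -0.03 for Panc-1. Over all background entries the medians were 0.15 and -0.01 for PK-1 versus 0.09 and -0.03 for Panc-1. The mitochondrial genes as a group were thus lower in PK-1, while in Panc-1 their median was near that of all entries. Rescaling the libraries by median ratios shifted all log2 fold changes of a comparison by the same amount, but for the pseudocount. The shifts were -0.11 (PK-1 RARγi-1), 0.05 (PK-1 RARγi-2), -0.09 (Panc-1 RARγi-1) and less than 0.01 (Panc-1 RARγi-2). After rescaling, the cytosolic medians were 0.27, 0.23, 0.43 and 0.57 in the same order, and the mitochondrial medians -0.62, -0.72, -0.14 and -0.03.

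**Figure D1:**
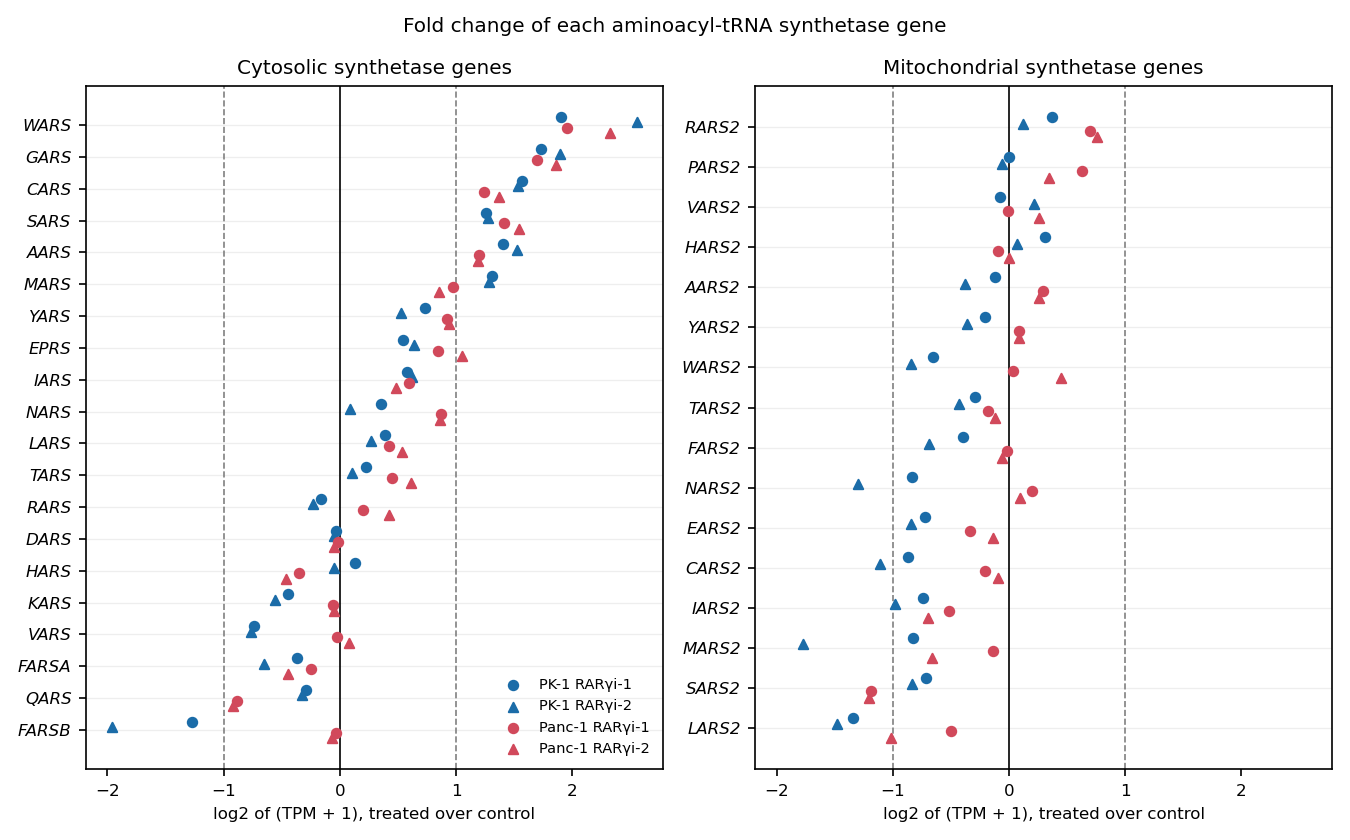
Log2 fold change of (TPM + 1), treated over control, on the horizontal axis for the 20 cytosolic (left) and 16 mitochondrial genes (right), with PK-1 in blue, Panc-1 in red, circles for RARγi-1 and triangles for RARγi-2, and dashed lines at 2-fold; each mark is 1 treated library against 1 control library. WARS, GARS, CARS, SARS and AARS lie to the right of the 2-fold line in all 4 comparisons, and no mitochondrial gene does so in any. Of all entries, between 8.29% and 13.3% were past 2-fold up in a comparison.

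A total of 5 genes, WARS, GARS, CARS, SARS and AARS, were past 2-fold up in all 4 comparisons, against 3.23% of the 9337 entries that passed the minimum in both lines. All 5 are in the cytosolic group, although GARS makes the mitochondrial form as well. In the opposite direction, 0 of the 36 genes were past 2-fold down in all 4, against 2.48% of the entries.

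WARS (Entrez gene 7453) codes for the tryptophan enzyme, which is also known as an interferon-inducible protein. Its level in PK-1 was 137 TPM in the control, 517 TPM under RARγi-1 and 812 TPM under RARγi-2. In Panc-1 it was 87.3, 342 and 440.3 TPM in the same order. Every treated library lay above both controls, and the RARγi-2 library was the highest of each line. The log2 fold changes were 1.90 and 2.55 for PK-1 versus 1.96 and 2.32 for Panc-1, with a mean of 2.18, the highest of the 36 genes.

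GARS (Entrez gene 2617) codes for the glycine enzyme of both cytosol and mitochondrion. In PK-1 it was at 178 TPM in the control, 593 TPM under RARγi-1 and 665 TPM under RARγi-2. In Panc-1, where it was the most abundant synthetase transcript of every library, it was at 389, 1265 and 1414 TPM. The untreated Panc-1 level lay between the untreated and treated levels of PK-1. The log2 fold changes were 1.73 and 1.90 for PK-1 versus 1.70 and 1.86 for Panc-1, so that the lines differed by less than the spread with each inhibitor.

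CARS (Entrez gene 833), for the cysteine enzyme, was at 40.4 TPM in the PK-1 control, 122 TPM under RARγi-1 and 119 TPM under RARγi-2. In Panc-1 it was at 204, 483 and 529.7 TPM. Its controls differed by 2.31 on the log2 scale, higher in Panc-1, and the log2 fold changes were 1.57 and 1.53 for PK-1 versus 1.24 and 1.37 for Panc-1. CARS was the least abundant cytosolic transcript of the PK-1 control.

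SARS (Entrez gene 6301), for the serine enzyme, was at 70.0 TPM in the PK-1 control, 169 TPM under RARγi-1 and 170.4 TPM under RARγi-2. The Panc-1 levels were 68.7, 185 and 202 TPM. Both controls had nearly the same level, and all 4 treated libraries were higher, with log2 fold changes of 1.26 and 1.27 for PK-1 versus 1.42 and 1.54 for Panc-1. AARS (Entrez gene 16), for the alanine enzyme, was at 148, 393 and 425 TPM in PK-1. Panc-1 had 157, 361 and 359 TPM. Here too the controls were close, and the log2 fold changes were 1.41 and 1.52 for PK-1 versus 1.20 and 1.19 for Panc-1.

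The methionine gene MARS came next. It was at 161, 401 and 394 TPM in PK-1, and its Panc-1 levels were 234, 461 and 425 TPM. It was past 2-fold in PK-1, at 1.31 and 1.28, and just short of it in Panc-1, at 0.97 and 0.86. EPRS, whose product carries both the glutamate and the proline enzyme, reached 2-fold with RARγi-2 in Panc-1 only, at 1.05, and was at 0.54, 0.64 and 0.84 in the other comparisons. A further 5 cytosolic genes, YARS, IARS, NARS, LARS and TARS, were higher than the control in all 4 comparisons without reaching 2-fold, between 0.09 (NARS, PK-1 RARγi-2) and 0.94 (YARS, Panc-1 RARγi-2). In all, 12 of the 20 cytosolic genes were higher in all 4 comparisons and 5 were lower in all 4, and these were the same genes after median-ratio rescaling. No share of all entries was computed for direction in all 4 comparisons, so these counts have no background.

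**Figure D2:**
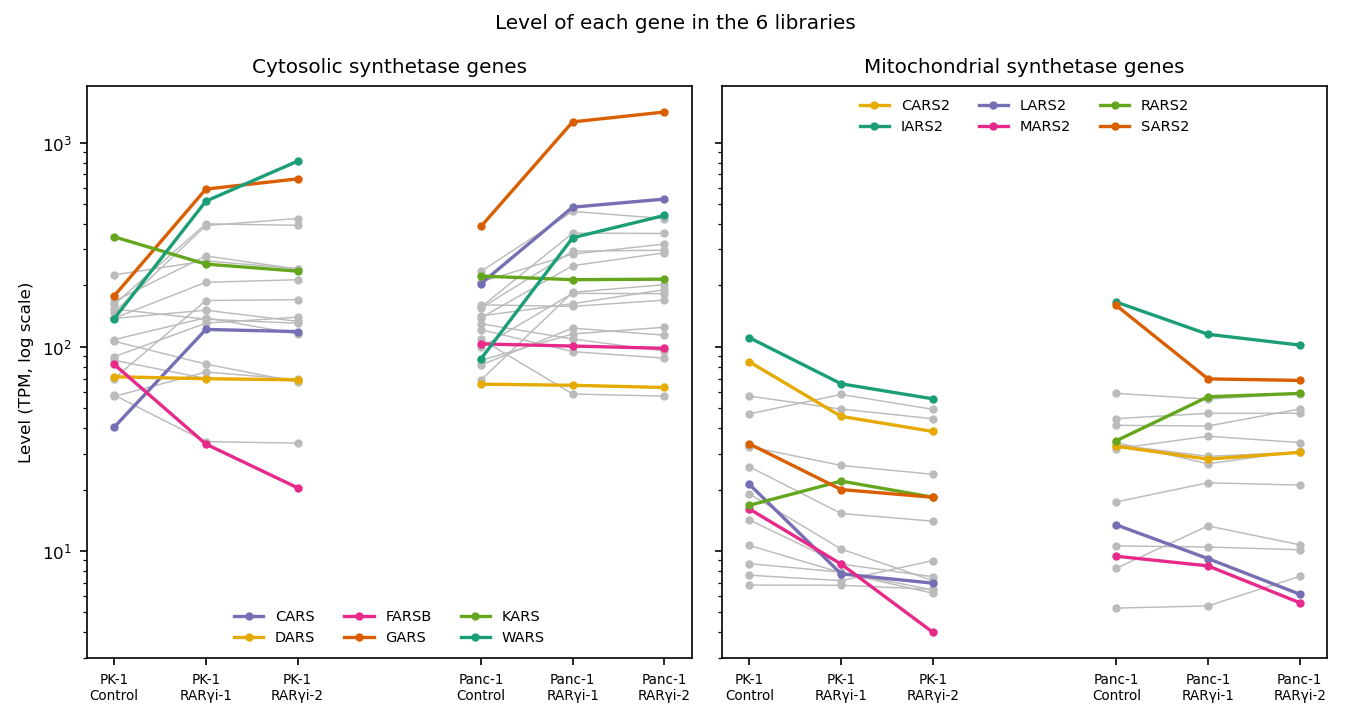
Level of each gene in TPM on a log axis in the 6 libraries, with the cytosolic genes on the left and the mitochondrial genes on the right; 6 genes of each are coloured, the others are grey, and lines join the libraries of 1 cell line. In PK-1, WARS lies at 137 TPM in the control and 812 TPM with RARγi-2, while FARSB lies at 82.1 and 20.4 TPM in these libraries and between 98.4 and 103 TPM in Panc-1.

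The cytosolic genes at the low end were FARSB, QARS and FARSA. FARSB and FARSA code for the β and α subunits of the phenylalanine enzyme, which works as a tetramer of both. FARSB (Entrez gene 10056) was at 82.1 TPM in the PK-1 control, 33.4 TPM under RARγi-1 and 20.4 TPM under RARγi-2. Levels in Panc-1 were 103, 101 and 98.4 TPM. FARSB was thus lower past 2-fold in PK-1, whereas in Panc-1 it differed from the control by less than the spread. The log2 fold changes were -1.27 and -1.96 against -0.03 and -0.07. The difference between the lines has no test.

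FARSA (Entrez gene 2193) was at 107 TPM in the PK-1 control, 82.4 TPM under RARγi-1 and 67.3 TPM under RARγi-2. In Panc-1 it was at 129.8, 109 and 95.3 TPM. It was lower in every treated library, at -0.37 and -0.65 for PK-1 versus -0.25 and -0.44 for Panc-1. The ratio of FARSA to FARSB transcripts, both per length, was 1.30 in the PK-1 control, 2.46 with RARγi-1 and 3.30 with RARγi-2. In Panc-1 the ratio was 1.26, 1.08 and 0.969. The subunit transcripts were therefore near balance in 4 libraries and apart in the treated PK-1 libraries only.

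QARS (Entrez gene 5859), for the glutamine enzyme, was at 86.0, 70.0 and 68.4 TPM in PK-1. The Panc-1 levels were 109, 58.8 and 57.4 TPM. It was the lowest cytosolic gene of both treated Panc-1 libraries, with log2 fold changes of -0.88 and -0.92 there and -0.29 and -0.33 in PK-1. KARS, for lysine in both compartments, was the most abundant synthetase transcript of the PK-1 control, at 346 TPM, and was at 254 and 235 TPM in the treated PK-1 libraries (-0.44 and -0.56). In Panc-1 it moved little, at -0.06 and -0.05. The valine gene VARS had a similar pattern, with -0.74 and -0.76 for PK-1 versus -0.03 and 0.08 for Panc-1. DARS, for aspartate, was the flattest, between -0.05 and -0.02 in the 4 comparisons.

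A total of 8 cytosolic enzymes (EPRS, IARS, LARS, MARS, QARS, KARS, RARS and DARS) are held together in the multi-synthetase complex, and the other 12 are free or in other assemblies. None of the 5 genes past 2-fold in all 4 comparisons belongs to the complex. The median log2 fold change of the complex genes was 0.18 and 0.11 for PK-1 versus 0.31 and 0.45 for Panc-1, and that of the other 12 was 0.54 and 0.31 for PK-1 versus 0.90 and 0.90 for Panc-1. The other 12 ranged widest in PK-1, from FARSB to WARS. By fold of the catalytic domain, the 9 class I genes had medians of 0.58, 0.52, 0.60 and 0.53 and the 10 class II genes 0.18, 0.02, 0.22 and 0.28, in the order PK-1 RARγi-1, PK-1 RARγi-2, Panc-1 RARγi-1 and Panc-1 RARγi-2. Among the complex genes, MARS was past 2-fold up in PK-1 and EPRS with RARγi-2 in Panc-1.

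The 6 genes with TGATGCAA in their window, shown above, were all higher than the control in all 4 comparisons. Their median log2 fold change was 0.94 and 0.95 for PK-1 versus 0.92 and 0.86 for Panc-1. The 10 cytosolic genes whose windows lacked it had medians of -0.02, -0.14, 0.08 and 0.19 in the same order. Past 2-fold up in PK-1 were 3 of the 6 and 3 of the 10 with each inhibitor. In Panc-1, 2 of the 6 were past 2-fold up with each inhibitor, against 3 of the 10 with RARγi-1 and 4 of the 10 with RARγi-2. The genes past 2-fold up were not confined to those with the letters. WARS and SARS, both past 2-fold in all 4 comparisons, held neither form, and GARS held the looser form only. DARS, LARS, VARS and YARS had no window and are in neither set. Among all 57 entries with TGATGCAA of 7632 that had a window and passed the minimum in both lines (0.747%), the medians were 0.33, 0.29, 0.51 and 0.48, against 0.12, -0.03, 0.07 and -0.02 for those without. Past 2-fold up were 24.6%, 22.8%, 24.6% and 28.1% of the 57, against 8.48%, 11.4%, 7.31% and 9.04% of those without. Of these 57, the synthetase genes make up 6, so the 57 are not independent of them. The absence of the letters says nothing of sites outside the window.

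**Figure D3:**
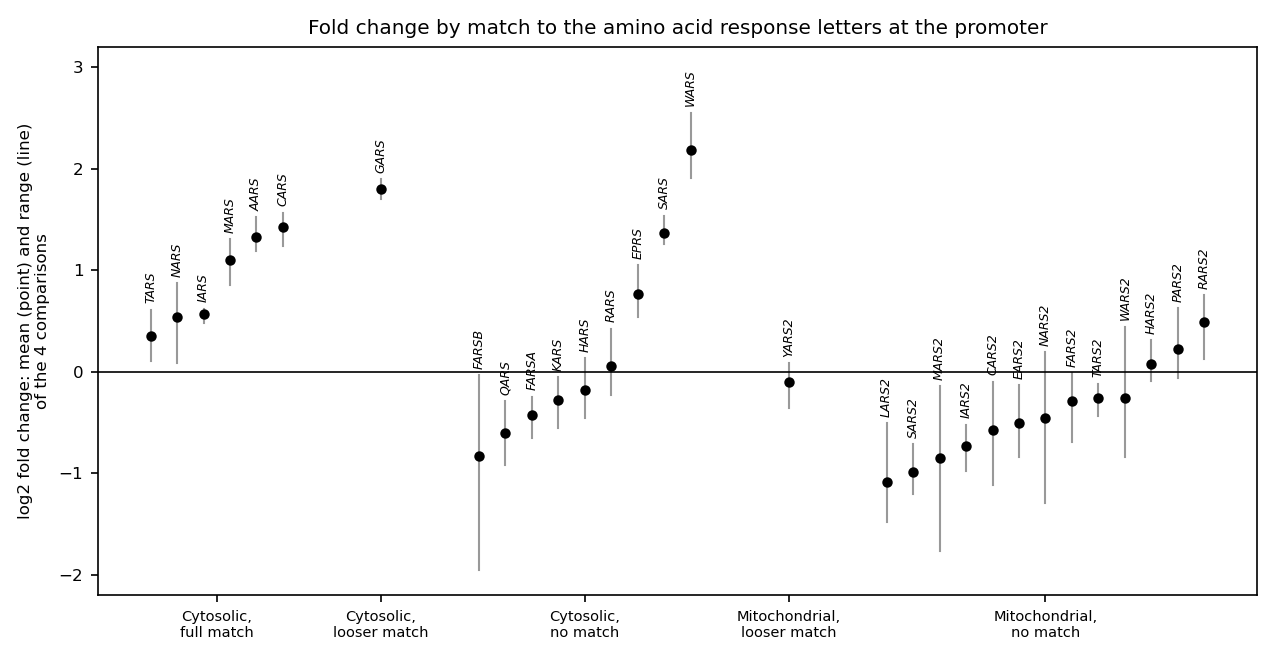
Mean log2 fold change over the 4 comparisons (point) and its range over them (line) for the 30 genes with a promoter window, grouped on the horizontal axis by compartment and by a full match to the 8 letters, a looser match or none. All 6 genes with the full match lie above 0, and the genes without a match run from -1.09 (LARS2) to 2.18 (WARS).

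Among the mitochondrial genes, LARS2, SARS2 and MARS2 had the lowest mean log2 fold change. LARS2 (Entrez gene 23395), for leucine, was at 21.2 TPM in the PK-1 control, 7.72 TPM under RARγi-1 and 6.96 TPM under RARγi-2. Panc-1 had 13.4, 9.18 and 6.15 TPM. Each treated library lay below the control of its line, with log2 fold changes of -1.35 and -1.48 for PK-1 versus -0.50 and -1.01 for Panc-1, and LARS2 was the only mitochondrial gene past 2-fold down in 3 comparisons.

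SARS2 (Entrez gene 54938), for serine, was at 33.5, 20.01 and 18.3 TPM in PK-1. Levels in Panc-1 were 159.6, 69.7 and 68.5 TPM. Its control level differed widely between the lines, by 2.22 on the log2 scale, and it was past 2-fold down in Panc-1 (-1.18 and -1.21) and lower, short of 2-fold, in PK-1 (-0.71 and -0.83). It was the only mitochondrial gene past 1.5-fold down in all 4 comparisons.

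MARS2 (Entrez gene 92935), for methionine, was at 16.1, 8.63 and 3.998 TPM in PK-1. In Panc-1 it was at 9.43, 8.46 and 5.58 TPM. In both lines the RARγi-2 library was the lowest, with log2 fold changes of -0.83 and -1.77 for PK-1 versus -0.14 and -0.66 for Panc-1. At these low levels the pseudocount matters most, and without it the second of these values is -2.01. NARS2 (asparagine) and CARS2 (cysteine) were past 2-fold down with RARγi-2 in PK-1 only, at -1.30 and -1.11. IARS2, the most abundant mitochondrial gene of every library at 55.6 to 166 TPM, was lower in all 4 comparisons, from -0.98 to -0.52.

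RARS2, PARS2 and VARS2 were at the other end. RARS2 (Entrez gene 57038), for arginine, was at 16.8, 22.0 and 18.4 TPM in PK-1. The Panc-1 levels were 34.7, 57.0 and 59.2 TPM. It was the only mitochondrial gene higher in all 4 comparisons, at 0.37 and 0.12 in PK-1, both within the spread, and 0.70 and 0.75 in Panc-1, both past it. PARS2 (Entrez gene 25973), for proline, was at 6.81, 6.80 and 6.48 TPM in PK-1, and its Panc-1 levels were 8.23, 13.3 and 10.7 TPM. VARS2 (Entrez gene 57176), for valine, was at 7.61, 7.16 and 8.98 TPM in PK-1, and its Panc-1 levels were 41.3, 41.0 and 49.6 TPM. Its log2 fold changes lay between -0.08 and 0.26, all within the spread, whereas the lines differed by 2.30 before treatment.

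In all, 8 mitochondrial genes were lower in all 4 comparisons (CARS2, EARS2, FARS2, IARS2, LARS2, MARS2, SARS2 and TARS2), and these too were the same after rescaling. The share of all entries lower in all 4 was not computed. In PK-1, 8 of 16 mitochondrial genes were past the spread on the low side with RARγi-1, where 18.4% of all entries were, and 10 of 16 with RARγi-2, where 31.9% were. The corresponding counts for Panc-1 were 4 of 16 with each inhibitor, near or below the background of 24.8% (RARγi-1) and 33.7% (RARγi-2). On the high side there were 0 of 16 with either inhibitor in PK-1, against 32.8% and 30.6% of all entries. Panc-1 had 2 and 3 of 16 on that side, against 34.4% and 31.2%.

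Because TPM is per length, the transcripts of a group can be summed within a library. GARS and KARS, which serve both compartments, are counted as cytosolic in the sums and in their ratio. The 20 cytosolic genes summed to 2562 TPM in the PK-1 control, 4121 TPM under RARγi-1 and 4364 TPM under RARγi-2. In Panc-1 the sums were 2963, 5312 and 5674 TPM. The cytosolic total was therefore 1.61-fold and 1.70-fold that of the control for PK-1 versus 1.79-fold and 1.91-fold for Panc-1. The 16 mitochondrial genes summed to 512, 368 and 316 TPM in PK-1 (0.718-fold and 0.617-fold) and to 701, 574 and 573 TPM in Panc-1 (0.820-fold and 0.817-fold). The ratio of the sums went from 5.0 in the PK-1 control to 11.2 with RARγi-1 and 13.8 with RARγi-2, and from 4.23 to 9.25 and 9.91 in Panc-1.

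A few genes carried much of the cytosolic total. In each comparison the 3 genes that gained the most TPM (GARS, WARS and AARS in PK-1, GARS, WARS and CARS in Panc-1) made up between 57.3% and 69.0% of all the gains. Without these 3 genes, the cytosolic sum was 1.25-fold and 1.17-fold that of the control for PK-1 versus 1.41-fold and 1.44-fold for Panc-1. In rank among the 36, WARS went from position 10 in the PK-1 control to 2 with RARγi-1 and 1 with RARγi-2, and from 18 to 5 and 3 in Panc-1. KARS moved the other way, from 1 to 7 and 7 for PK-1, or 3 to 9 and 9 for Panc-1.

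**Figure D4:**
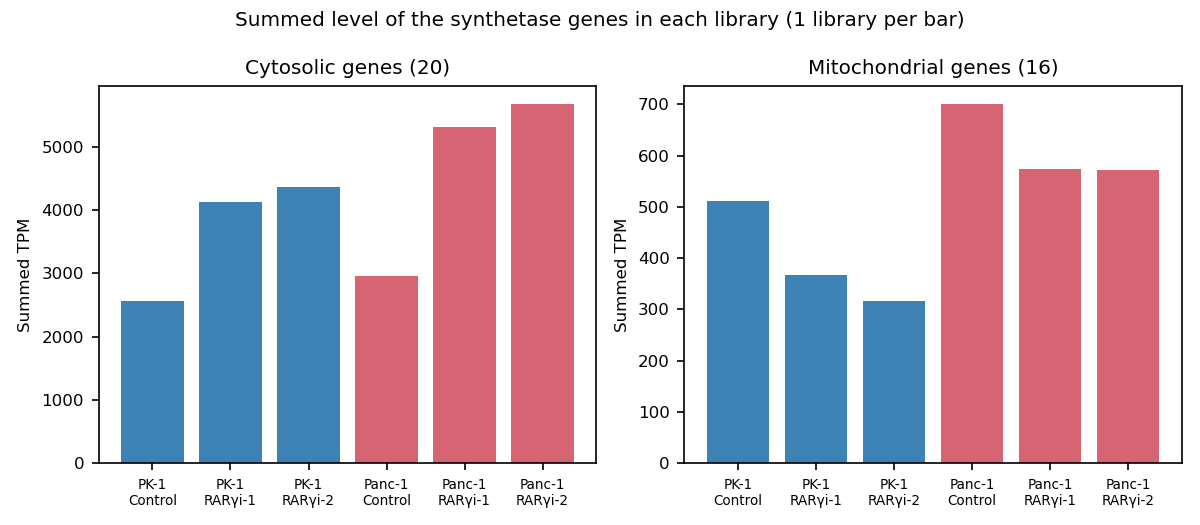
Summed TPM of the 20 cytosolic (left) and 16 mitochondrial genes (right) in each library, with 1 bar per library and axes from 0 that differ in scale. The cytosolic bars go up from 2562 to 4364 TPM in PK-1 and from 2963 to 5674 TPM in Panc-1, and the mitochondrial bars go down from 512 to 316 TPM and from 701 to 573 TPM.

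For the same amino acid, the cytosolic and mitochondrial genes were compared within a library as 16 pairs, in which EPRS stands against both EARS2 and PARS2, so that scaling cancels out but for the pseudocount. The cytosolic log2 fold change was above the mitochondrial one in 13 of 16 pairs with each inhibitor in PK-1 and in 12 of 16 with each in Panc-1. In 12 pairs this held in all 4 comparisons. The median difference was 1.23 and 1.43 for PK-1 versus 0.87 and 0.89 for Panc-1. The exceptions were the arginine, histidine and valine pairs, in which the mitochondrial gene had the higher value in all 4 comparisons, and the FARSA and FARS2 pair, in which the order differed between the lines.

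The tryptophan pair was the farthest apart on the mean of the 4 comparisons. WARS2 (Entrez gene 10352) was at 14.2 TPM in the PK-1 control, 8.63 TPM under RARγi-1 and 7.48 TPM under RARγi-2. Panc-1 had 5.25, 5.38 and 7.51 TPM. Its log2 fold changes were -0.66 and -0.84 for PK-1 versus 0.03 and 0.44 for Panc-1, so that WARS exceeded it by 2.56 and 3.39 for PK-1 versus 1.93 and 1.88 for Panc-1. The ratio of WARS to WARS2 transcripts went from 9.68 to 59.9 and 108 in PK-1 and from 16.6 to 63.6 and 58.6 in Panc-1. The serine pair differed by 1.97 and 2.11 for PK-1 versus 2.60 and 2.75 for Panc-1, where SARS and SARS2 moved past 2-fold in opposite directions. The methionine pair differed by 2.13 and 3.05 for PK-1 versus 1.11 and 1.52 for Panc-1.

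**Figure D5:**
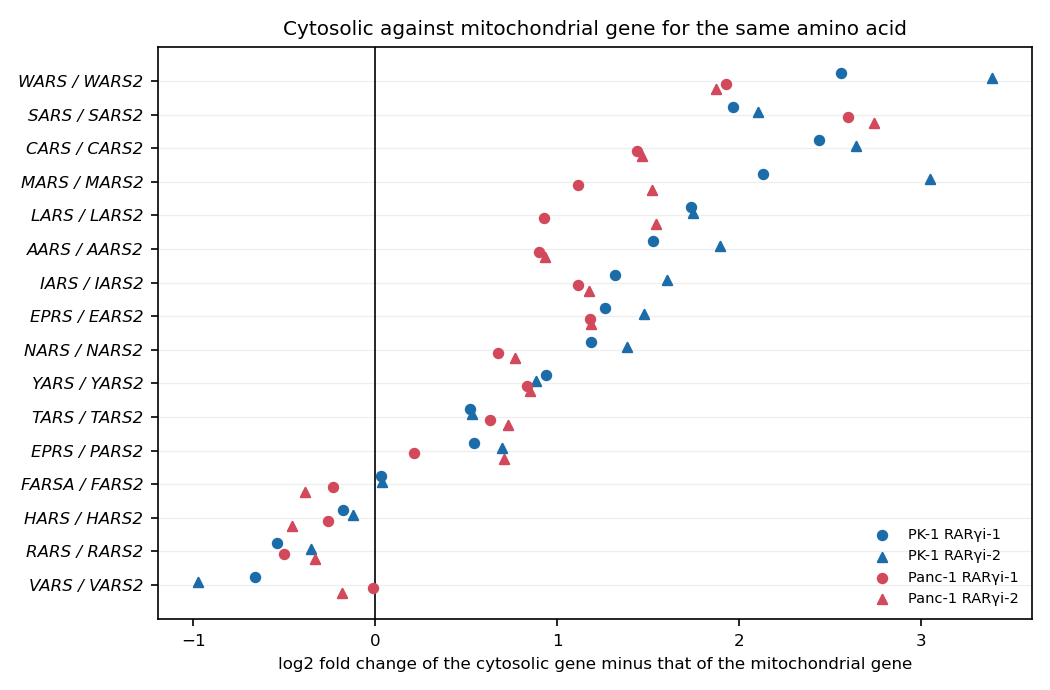
Log2 fold change of the cytosolic gene minus that of the mitochondrial gene for the same amino acid (horizontal axis) in 16 pairs, with PK-1 in blue, Panc-1 in red, circles for RARγi-1 and triangles for RARγi-2. In 12 pairs all 4 marks lie to the right of 0, and in the arginine, histidine and valine pairs all 4 lie to the left.

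HARS and HARS2, the histidine genes, lie head to head on chromosome 5, and 84 bases separate their RefSeq starts (chr5:140691371-140691454, GRCh38.p14, plus strand). The stretch between them is shown because both genes start at its ends, and it holds 0 matches to TGATGNAA.
HARS and HARS2: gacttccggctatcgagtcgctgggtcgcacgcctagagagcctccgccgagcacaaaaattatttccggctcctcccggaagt

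HARS (Entrez gene 3035) was at 138 TPM in the PK-1 control, 151 TPM under RARγi-1 and 133 TPM under RARγi-2. Levels in Panc-1 were 121, 94.8 and 88.0 TPM. HARS2 (Entrez gene 23438) was at 47.0, 58.5 and 49.4 TPM in PK-1, and its Panc-1 levels were 59.2, 55.5 and 59.0 TPM. In PK-1 both genes differed from the control by less than the spread, with log2 fold changes of 0.13 and -0.05 for HARS and 0.31 and 0.07 for HARS2. In Panc-1, HARS was lower, at -0.35 and -0.46, both past the spread, and HARS2 was not, at -0.09 and within 0.01 of 0. The ratio of HARS to HARS2 was 2.94, 2.59 and 2.70 across the PK-1 libraries, with 2.05, 1.71 and 1.49 for Panc-1.

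A total of 7 genes were on opposite sides of the control in the 2 cell lines with both inhibitors. The share of all entries that did so was not computed, so whether 7 of 36 is usual is unknown. Some of the values lay near 0, such as PARS2 with RARγi-1 in PK-1 (-0.002). RARS (Entrez gene 5917), for arginine, was at 153, 137 and 131 TPM in PK-1, and its Panc-1 levels were 142, 163 and 191 TPM. NARS2 (Entrez gene 79731) was at 19.0, 10.2 and 7.16 TPM in PK-1, and its Panc-1 levels were 31.7, 36.5 and 34.0 TPM. NARS2 had the widest gap, with log2 fold changes of -0.84 and -1.30 for PK-1 versus 0.20 and 0.10 for Panc-1, the latter within the spread. AARS2 (Entrez gene 57505), for alanine, was at 8.67, 7.88 and 6.45 TPM in PK-1, and its Panc-1 levels were 17.4, 21.6 and 21.0 TPM. YARS2 (Entrez gene 51067), for tyrosine, was at 57.4, 49.6 and 44.5 TPM in PK-1, and its Panc-1 levels were 44.5, 47.2 and 47.3 TPM. The others were HARS2, PARS2 and WARS2, given above. After median-ratio rescaling, 5 of the 7 kept opposite sides, and WARS2 and YARS2 did not.

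The inhibitors were also set against each other, with the doses unknown. The median difference of RARγi-2 minus RARγi-1 in PK-1 was -0.03 over the cytosolic and -0.21 over the mitochondrial genes, against -0.16 over all entries. After median-ratio rescaling these were 0.12 and -0.07, against -0.01, so the cytosolic sign turned. In Panc-1 the medians were 0.01 and -0.01, against -0.11, and after rescaling 0.10 and 0.07, against -0.02, so the mitochondrial sign turned.

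Past the spread between the inhibitors were 4 of the 36 genes in each line, against 36.2% of all entries in each. WARS was higher with RARγi-2 in both lines, by 0.65 in PK-1 and 0.36 in Panc-1. MARS2 was lower with RARγi-2 in both, at -0.95 and -0.52. Past the spread in PK-1 only were FARSB (-0.68) and NARS2 (-0.46), and in Panc-1 only LARS2 (-0.51) and WARS2 (0.41). After rescaling NARS2 was no longer past the spread, and VARS2 was, higher with RARγi-2 in both lines. The remaining genes of each line differed by less than the spread, which does not show that the inhibitors acted alike. In PK-1, 15 of the 16 mitochondrial genes were lower with RARγi-2 than with RARγi-1, against 65.6% of all entries, and 10 of 16 after rescaling, against 51.0%. In Panc-1, 8 of 16 were lower, against 64.4% of all entries, and 5 of 16 after rescaling, against 53.1%.

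The genes that work with the synthetases were mostly short of 2-fold, as were most of all entries. Of all entries in PK-1, 10.3% (RARγi-1) and 13.3% (RARγi-2) were past 2-fold up, and 5.36% and 14.1% down. In Panc-1 these shares were 8.29% and 9.59% up, and 6.45% and 12% down. The groups below are too small for a count of 0 or 1 to be told apart from these shares. The scaffolds of the multi-synthetase complex, AIMP1, AIMP2 and EEF1E1, had 0 of 3 past 2-fold in each comparison, with log2 fold changes from -0.80 to 0.32. The mitochondrial glutamine amidotransferase genes QRSL1, GATB and GATC and the formyltransferase gene MTFMT, which prepare mitochondrial glutaminyl-tRNA and initiator tRNA, had 0 of 4 past 2-fold, from -0.87 to 0.07. Of the 4 proofreading and synthetase-like genes AARSD1, DTD1, DTD2 and TARSL2, DTD1, a deacylase of D-aminoacyl-tRNA, was higher in all 4 comparisons (0.55, 0.62, 1.37 and 0.99) and past 2-fold in 1.

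Of 7 genes for delivery of charged tRNA to the ribosome, 1 was past 2-fold up with RARγi-1 in PK-1 (EEF1A2, 1.17) and 1 past 2-fold down with RARγi-2 in PK-1 (TSFM, for a mitochondrial elongation factor, -1.05). In Panc-1, 0 of the 7 were past 2-fold with either inhibitor. Of 6 genes for tRNA maturation and export, XPOT, for the exporter of tRNA from the nucleus, was at 95.7, 217 and 223 TPM in PK-1, and its Panc-1 levels were 109.98, 195 and 219.7 TPM. It was past 2-fold up in PK-1 (1.18 and 1.21) and short of it in Panc-1 (0.82 and 0.99). Of the entries that passed the minimum in both lines, 2.48% were past 2-fold down in all 4 comparisons. POP1 was among them (-1.18, -2.02, -1.17 and -1.19). It codes for a subunit of the ribonuclease P that trims the tRNA 5′ end. RPPH1, its RNA subunit, did not reach the minimum of 5 TPM in either line, and was past 2-fold up with RARγi-1 in PK-1 only (1.15).

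The 6 genes of the amino acid response listed for context (ATF4, ASNS, CHAC1, TRIB3, SESN2 and DDIT3) were all past 2-fold up in both PK-1 comparisons and with RARγi-2 in Panc-1, and 5 of 6 with RARγi-1 in Panc-1, where ATF4 was at 0.99. Their median log2 fold change was 2.57 and 3.24 for PK-1 versus 2.71 and 3.21 for Panc-1. ASNS, for asparagine synthetase, was at 64.2, 425 and 419 TPM in PK-1, and its Panc-1 levels were 149.8, 589.7 and 702 TPM. These medians lay above the log2 fold change of each synthetase gene in the same comparison. Earlier results of these data were known when this list was drawn up, and whether these genes and the synthetase genes changed through a common route was not tested.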

How the data were processed

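RNA-seq was carried out on Trizol RNA with a stranded mRNA kit, and libraries were grouped by their titles. The authors deposited log2 TPM per gene entry, with a floor of 1 TPM. The submitters' processing notes name the build hg38. The aligner, counter and annotation are not given in the sources used here.

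From linear TPM, log2 ratios of (TPM + 1) against the control of each line were computed with Python 3.11.15, numpy 2.4.6, pandas 2.3.3 and matplotlib 3.10.9, after being tested on simulated data. The spread is 1.4826 times the median absolute deviation of RARγi-2 minus RARγi-1. The members and lists were chosen with earlier results of these data known. Values per library are given for the 5 cytosolic and 3 mitochondrial genes with the highest mean log2 fold change, the 3 of each with the lowest, genes with opposite signs in the lines, and the HARS, WARS and phenylalanine genes. MARS, EPRS, KARS, XPOT and ASNS were given values in addition. Of the symbols, 18 are older names (AARS is now AARS1). Promoters and symbols are from RefSeq (GRCh38.p14). Alternatives changed the pseudocount, scaling, threshold, minimum and handling of repeated symbols.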

Additional observations from a re-analysis of the deposited data

Results flagged for a closer look

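In 7 of the 36 genes both PK-1 comparisons lay on one side of the control and both Panc-1 comparisons on the other, and the difference was not tested. No share of all entries with this pattern was computed, so 7 of 36 has no background. The mean log2 fold change in Panc-1 minus that in PK-1 was 1.21 for NARS2 (-1.07 in PK-1 and 0.15 in Panc-1). For WARS2 it was 0.99 (-0.75 and 0.24). The difference was 0.53 for AARS2 (-0.25 and 0.28), 0.52 for PARS2 (-0.03 and 0.49) and 0.51 for RARS (-0.20 and 0.31). YARS2 had a difference of 0.37 (-0.28 and 0.08). HARS2 was the only gene higher in PK-1, with a difference of -0.24 (0.19 and -0.05). In 0 of the 7 genes were all 4 log2 fold changes past the spread of their line.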

How the results depend on the processing

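No pseudocount, a pseudocount of 0.1 TPM, median-ratio rescaling, no minimum, and summing of repeated symbols left every count within 1.5 times its main value and gave the same 5 genes past the threshold up in all 4 comparisons. The signs of 4 values turned under rescaling: the median RARγi-2 minus RARγi-1 of the cytosolic genes in PK-1 (0.12) and of the mitochondrial genes in Panc-1 (0.07), and WARS2 (-0.05) and YARS2 (within 0.01 of 0) in Panc-1 RARγi-1. The same mitochondrial median was 0.05 with a minimum mean of 20 TPM. All 5 moved by less than the spread. Values follow in the order PK-1 RARγi-1, PK-1 RARγi-2, Panc-1 RARγi-1, Panc-1 RARγi-2. With a 1.5-fold threshold, the cytosolic genes down were 2, 3, 1 and 1, and those up in Panc-1 were 10 and 10. The mitochondrial genes down were 8 and 9 in PK-1 and 4 in Panc-1 RARγi-2, with 1 down in all 4 (SARS2), and those up in Panc-1 were 2 and 1. Of all entries, 23.5%, 24.3%, 20.1% and 20.01% were then up and 12.7%, 25.1%, 14.5% and 22.5% down. With a 3-fold threshold, 2 cytosolic genes were up in each comparison, and GARS and WARS were the 2 up in all 4. The cytosolic genes down in PK-1 RARγi-1 were then 0, the mitochondrial genes down 0, 1, 0 and 0, and all entries 3.29%, 5.54%, 2.55% and 3.48% up and 1.78%, 6.40%, 2.42% and 5.43% down. With a minimum mean of 20 TPM, the mitochondrial genes down were 0 and 1 in PK-1 and 1 in Panc-1 RARγi-2, since fewer genes passed. No paired analysis was possible because the labels give no replicate numbers and each condition has 1 library, so none could be left out either. A fit of treatment with the cell line as a block, which would take the lines as replicates of each other, was not made. The depth is unknown, so low mitochondrial genes have no counting error. All 4 comparisons rest on 2 control libraries.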
